A study of Mus musculus with 11 samples.

Results

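The BCL2 family decides whether the outer mitochondrial membrane of a stressed cell stays intact. The 10 genes described here were Bcl2, Bcl2l1, Bcl2l2, Mcl1, Bcl2l11, Bid, Pmaip1, Bax, Bak1 and Bok, out of 25079 genes or unnamed features tested. They were found through the RefSeq accessions of their probes, without use of any measured value, and were read by 14 probes. The cells were mouse L-GMP, granulocyte-macrophage progenitors transformed with the leukaemia fusion MLL-AF9, from 4 lines derived from leukaemic mice. All were C57BL/6 cells of genotype Jmjd2a/b/c f/f;Rosa26::CreERT2, so the histone demethylase genes Kdm4a, Kdm4b and Kdm4c were floxed in every sample, and a tamoxifen-activated Cre was made from the broadly active Rosa26 locus. Cultures held 20% FBS and 10 ng/ml IL-3. RNA came from cells before 4-hydroxytamoxifen (0 h, 4 arrays) and after 48 h (4 arrays) or 96 h (3 arrays) in 500 nM of it, and no cells without floxed alleles were analysed here. Gene deletion, drug with active Cre, and time in culture therefore cannot be told apart.

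Pro-survival members (Bcl2, Bcl2l1, Bcl2l2 and Mcl1) hold the death-promoting members in check by binding them. BH3-only members (Bcl2l11, Bid and Pmaip1) sense stress or loss of growth factor and bind the pro-survival proteins, and some also bind the effectors directly. The effectors Bax and Bak1 form pores that release cytochrome c, and Bok is a related multidomain protein whose control differs from theirs. In myeloid progenitors grown in IL-3, signalling through JAK2 and STAT5 is known to maintain Bcl2l1 and Mcl1, and Mcl1 is known for its role in the survival of these progenitors.

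The 250 bases before an annotated start are shown for Bok and Bid, whose signals moved most among the members at 48 h (up and down). They are also shown for Bcl2l11 and Bax, the members with a motif match among those searched. Sequences are from RefSeq, build GRCm38.p6, written 5′ to 3′ on the gene's strand, and capitals mark the matches (a forkhead motif in Bcl2l11, an E-box in Bax).
Bok, chr1:93685325-93685574 (+ strand): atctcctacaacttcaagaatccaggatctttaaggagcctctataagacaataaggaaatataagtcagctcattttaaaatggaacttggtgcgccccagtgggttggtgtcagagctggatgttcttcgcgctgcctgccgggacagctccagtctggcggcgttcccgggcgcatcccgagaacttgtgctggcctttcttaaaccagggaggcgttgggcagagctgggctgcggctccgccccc
Bid, chr6:120916825-120917074 (- strand): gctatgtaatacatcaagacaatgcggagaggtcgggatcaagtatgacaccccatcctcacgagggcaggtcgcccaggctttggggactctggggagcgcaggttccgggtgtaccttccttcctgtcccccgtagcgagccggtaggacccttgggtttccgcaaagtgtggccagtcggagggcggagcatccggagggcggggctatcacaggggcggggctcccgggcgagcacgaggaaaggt
Bcl2l11, chr2:128125788-128126037 (+ strand): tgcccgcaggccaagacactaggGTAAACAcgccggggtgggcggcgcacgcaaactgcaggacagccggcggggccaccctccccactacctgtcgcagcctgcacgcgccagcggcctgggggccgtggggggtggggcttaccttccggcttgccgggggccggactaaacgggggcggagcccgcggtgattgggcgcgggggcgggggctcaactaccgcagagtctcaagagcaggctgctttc
Bax, chr7:45466899-45467148 (- strand): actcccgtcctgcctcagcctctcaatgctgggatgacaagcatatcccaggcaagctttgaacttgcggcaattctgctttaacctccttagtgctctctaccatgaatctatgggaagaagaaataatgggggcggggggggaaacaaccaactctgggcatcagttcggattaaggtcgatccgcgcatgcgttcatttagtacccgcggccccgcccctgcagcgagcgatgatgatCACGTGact

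Windows of 9 members were searched, 12 in all, and Pmaip1 was not among them. Both strands were searched for 4 motifs: TTCNNNGAA (STAT), CACGTG (E-box), TGACGTCA (CRE) and GTAAACA (forkhead). No motif contained another. The forkhead motif lay at position -227 from the first Bcl2l11 start and in 3.17% of all 32851 windows. The E-box lay at -9 from the Bax start and in 6.02% of windows. STAT and CRE motifs were found in 0 of the 12 member windows, against 7.02% and 1.55% of all windows. A match describes these letters and is not a binding site, and no binding was measured.

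Values are scaled log2 signals, that is log2 of the background-subtracted spot signal minus the array's 75th percentile, and a difference of 1 is a 2-fold difference. They compare arrays for 1 probe and not genes with each other. Differences were tested with limma over all 25079 genes, and a gene was called at a Benjamini-Hochberg adjusted p under 0.05. The floxed genes were lower on every treated array, with differences at 48 h of -1.59 ± 0.130 for Kdm4a, -3.30 ± 0.104 for Kdm4b and -4.95 ± 0.171 for Kdm4c (log2, SE). Arrays at 0 h and 48 h lay on slide 1 and all 96 h arrays on slide 2, where median signals were 19.6 to 37.8 against 9.65 to 15.4, so slide and 96 h cannot be told apart. On 96 h replicate 1, 42054 probes were well above background, against 27557 to 35698 on the others. Of the 10 neutrophil markers, 4 were called higher at 96 h. The scaled signal summed over all 10, called or not, on a linear scale was 795 to 1502 at 96 h against 79.2 to 637 at 0 h. Its part in the results at 96 h was not tested. All 9 progenitor markers passed the filter on dim probes, and at 48 h 1 was called higher (Mpo, 4.33 ± 0.520, SE) and 2 lower (Hoxa9, -0.62 ± 0.142, and Meis1, -0.64 ± 0.113). A lower signal can mean fewer cells of a type or less RNA per cell. The labels do not say which replicate is which cell line, so p-values measure the spread between these samples. The main fit did not pair arrays by replicate number. All 10 members passed the filter on dim probes, and 13 of the 14 probes were well above background on all 11 arrays.

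At 48 h, 4 members fell (Bcl2l1, Bcl2l2, Bid and Pmaip1) and 1 rose (Bok). Over all genes 8.03% were called lower and 10.5% higher. Groups did not overlap for 6 members, against 23.9% of all genes, and the members' median difference was -0.39 against 0.12 over all genes. At 96 h, 4 members were lower than at 0 h (Bcl2l1, Bid, Pmaip1 and Bok) and 0 higher, with 3.38% and 6.18% of all genes called. At unadjusted p under 0.05 limma gave 5 lower and 0 higher. The added member, Bcl2l11, had an unadjusted limma p of 0.0306, which ranked 5784 of 25079 genes in either direction. Groups did not overlap for 4 members, against 25.1% of genes, and the medians were -0.40 and 0.11. From 48 h to 96 h, Bok fell and Bcl2l2 rose, with 5.95% of all genes called lower and 5.17% higher, and groups did not overlap for 4 members against 27.9% of genes. The 2 comparisons with 0 h share their control arrays.

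**Figure D1:**
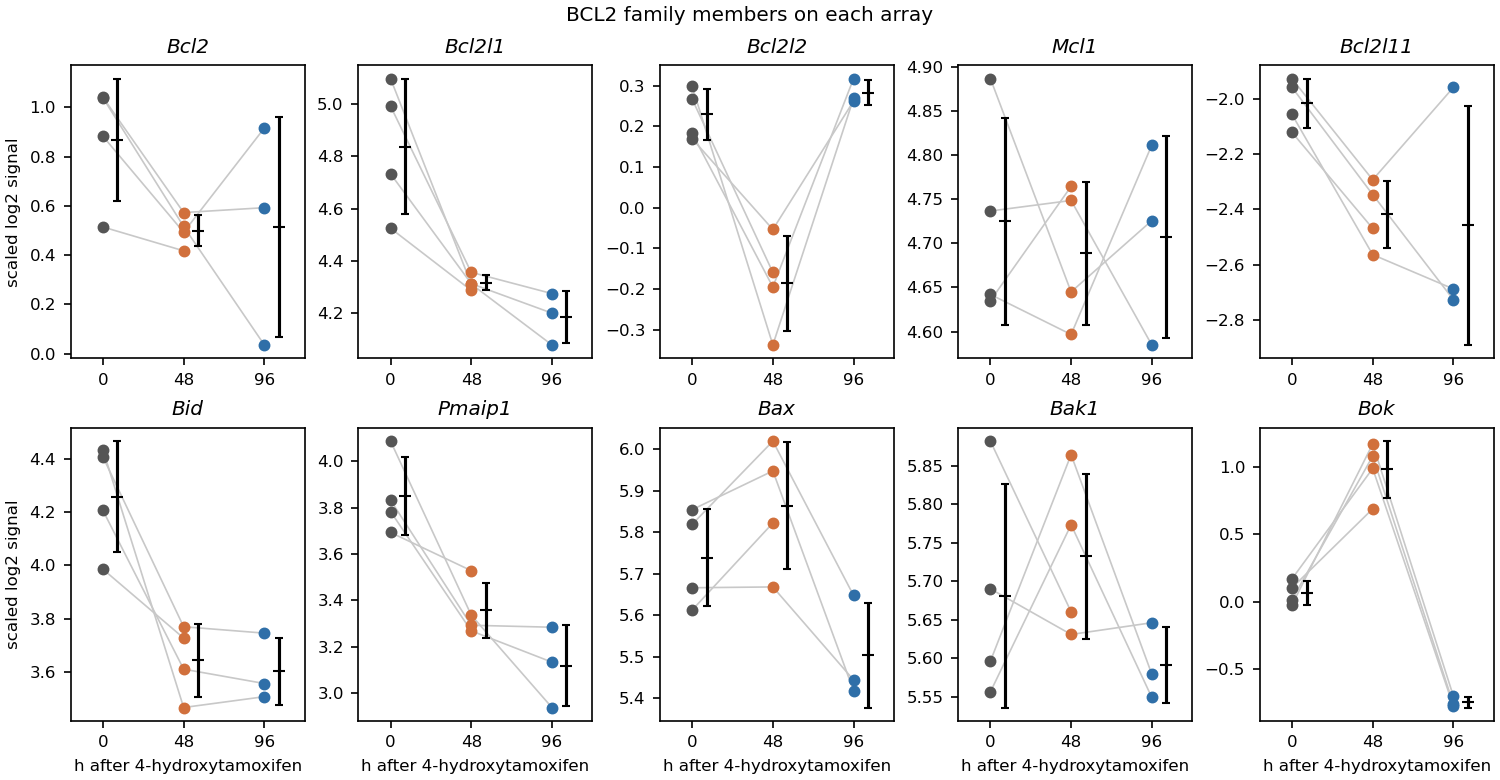
Scaled log2 signal (vertical axis, its own range in each panel) of the 10 members at 0, 48 and 96 h. Points are arrays, black marks are group means ± SD, and grey lines join arrays with the same number in their file names; the Bok arrays rise at 48 h and lie lowest at 96 h, while Bcl2l1, Bid and Pmaip1 lie lower at both times.

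Among the pro-survival members, Bcl2l1 (BCL-XL) was lower at both times. Its signals were 4.99, 4.52, 4.73 and 5.10 at 0 h, 4.35, 4.29, 4.31 and 4.31 at 48 h and 4.27, 4.20 and 4.08 at 96 h. All treated arrays lay below all 0 h arrays, and the 48 h arrays lay within a narrow range. The difference was -0.52 ± 0.126 (limma, SE, adjusted p = 0.0200) at 48 h, which left 69.6% of the 0 h signal, and -0.66 ± 0.136 (limma, SE, adjusted p = 0.0212) at 96 h, which left 63.5%. From 48 h to 96 h it was -0.13 ± 0.136 (limma, SE, adjusted p = 0.567). The call at 48 h was lost without 0 h replicate 1 (-0.47, adjusted p = 0.0531), 0 h replicate 4 (-0.44, adjusted p = 0.0518) or 48 h replicate 4 (-0.52, adjusted p = 0.0521). The call at 96 h was lost in limma with only those 2 groups (adjusted p = 0.0731), without 96 h replicate 2 (-0.66, adjusted p = 0.0608) and without 96 h replicate 3 (-0.60, adjusted p = 0.0685).

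A second Bcl2l1 probe (A_52_P510877) was tested with adjustment over all 34269 probes. It read -1.55 to -0.90 at 0 h, -1.91 to -1.37 at 48 h and -2.29 to -1.77 at 96 h. The difference was -0.46 ± 0.188 (limma, SE, adjusted p = 0.118) at 48 h, where the groups overlapped, and -0.87 ± 0.203 (limma, SE, adjusted p = 0.0326) at 96 h, where they did not. Both probes were thus called lower at 96 h, and 1 of the 2 at 48 h.

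Bcl2l2 (BCL-W) fell at 48 h and was higher again at 96 h. The arrays read 0.30, 0.27, 0.17 and 0.18 at 0 h, -0.34, -0.16, -0.05 and -0.20 at 48 h and 0.27, 0.26 and 0.32 at 96 h. The 48 h arrays lay below all others, and the 0 h and 96 h arrays overlapped. The difference was -0.42 ± 0.0864 (limma, SE, adjusted p = 0.0121) at 48 h, 0.05 ± 0.0933 (limma, SE, adjusted p = 0.739) at 96 h with a 95% interval of -0.15 to 0.26, and 0.47 ± 0.0933 (limma, SE, adjusted p = 0.0140) from 48 h to 96 h. The last was not called with each array scaled to its median (0.31, adjusted p = 0.396) or without 96 h replicate 1 (0.48, adjusted p = 0.0517). A second, dim probe (A_55_P2144120) was well above background on 5 of 11 arrays and on 0 of the 4 at 48 h. With both probes averaged, the calls at 48 h (-0.65, adjusted p = 0.0716) and from 48 h to 96 h (0.72, adjusted p = 0.0902) were lost.

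Mcl1 and Bcl2 were not called in any comparison. Mcl1 read 4.63 to 4.89 at 0 h, 4.60 to 4.76 at 48 h and 4.58 to 4.81 at 96 h, so the groups overlapped. Its difference was -0.04 ± 0.0951 (limma, SE, adjusted p = 0.812) at 48 h with a 95% interval of -0.25 to 0.17, and -0.02 ± 0.103 (limma, SE, adjusted p = 0.928) at 96 h with an interval of -0.25 to 0.21. A second Mcl1 probe (A_52_P93933) was below all 0 h arrays on all 3 arrays at 96 h, at 2.55 to 2.91 against 2.92 to 3.37, and its difference of -0.42 ± 0.133 (limma, SE, adjusted p = 0.0769) was not called. Bcl2 itself read 1.04, 0.51, 0.88 and 1.04 at 0 h, 0.57, 0.42, 0.49 and 0.52 at 48 h and 0.59, 0.92 and 0.04 at 96 h. The 96 h arrays spread more widely than the others and overlapped the 0 h arrays. The Bcl2 differences were -0.37 ± 0.184 (limma, SE, adjusted p = 0.184) and -0.35 ± 0.199 (limma, SE, adjusted p = 0.268), with intervals of -0.78 to 0.04 and -0.80 to 0.09.

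**Figure D2:**
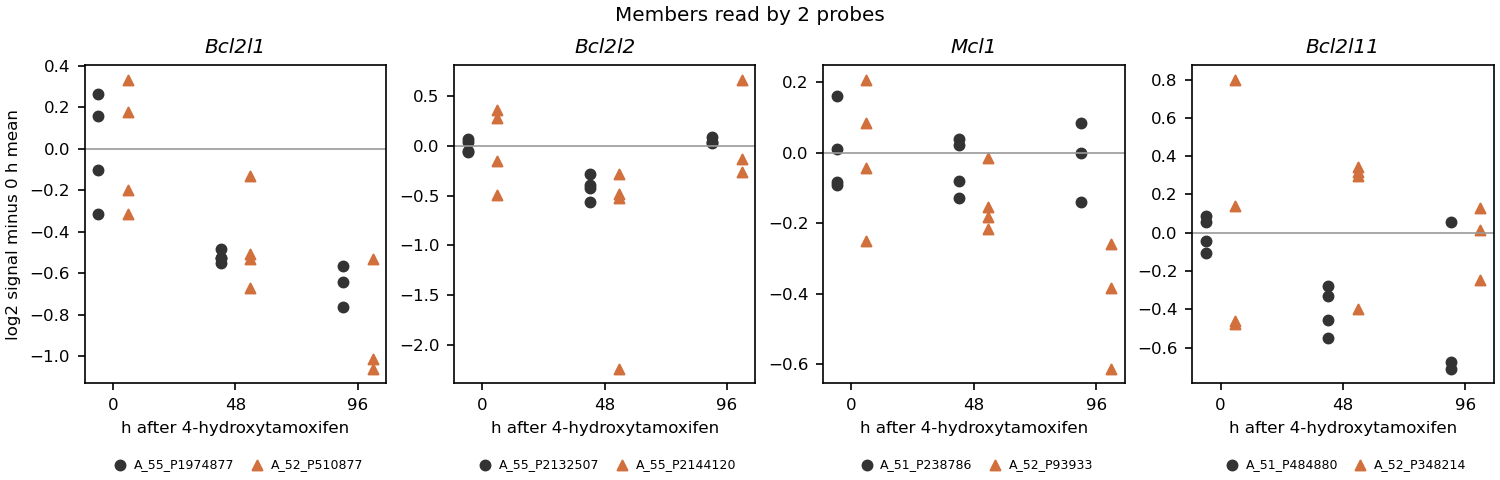
Log2 signal minus the probe's 0 h mean (vertical axis) at 0, 48 and 96 h for the 4 members read by 2 probes, with circles for the brighter probe and triangles for the other, 1 point per array. Both Bcl2l1 probes lie below 0 on treated arrays, while the 2 Bcl2l11 probes differ.

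Bid and Pmaip1, both BH3-only, fell at 48 h and were still low at 96 h. Bid, which caspase-8 cleaves to its active form, read 4.41, 3.99, 4.21 and 4.44 at 0 h, 3.77, 3.73, 3.61 and 3.46 at 48 h and 3.75, 3.56 and 3.51 at 96 h. No treated array reached a 0 h array. The differences were -0.62 ± 0.125 (limma, SE, adjusted p = 0.0108) and -0.66 ± 0.135 (limma, SE, adjusted p = 0.0204), which left 65.2% and 63.4% of the 0 h signal. The call at 48 h held in all 24 alternatives run, though averaging probes could not move the difference of this 1-probe gene, nor could leaving out a 96 h array. The Bid call at 96 h was lost with only the 2 groups in the fit (adjusted p = 0.0634 in limma), and without 0 h replicate 4 (-0.60, adjusted p = 0.0525), 96 h replicate 2 (-0.63, adjusted p = 0.0653) or 96 h replicate 3 (-0.61, adjusted p = 0.0663).

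Pmaip1 (NOXA, which binds MCL1) read 3.83, 3.69, 3.78 and 4.09 at 0 h, 3.29, 3.53, 3.27 and 3.34 at 48 h and 3.28, 3.13 and 2.94 at 96 h. Again no treated array reached a 0 h array. The differences were -0.49 ± 0.118 (limma, SE, adjusted p = 0.0198) at 48 h and -0.73 ± 0.128 (limma, SE, adjusted p = 0.0130) at 96 h. The call at 48 h was lost without 0 h replicate 4 (-0.41, adjusted p = 0.0524), 48 h replicate 1 (-0.47, adjusted p = 0.0531) or 48 h replicate 4 (-0.49, adjusted p = 0.0535), and the one at 96 h with only the 2 groups in the fit (adjusted p = 0.0524 in limma).

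Bcl2l11 (BIM, a BH3-only protein known to rise when cytokine is withdrawn) was not called in the main processing. Its brighter probe read -1.93, -2.12, -2.06 and -1.96 at 0 h, -2.29, -2.47, -2.56 and -2.35 at 48 h and -1.96, -2.69 and -2.73 at 96 h. All 48 h arrays lay below the 0 h arrays, and at 96 h 1 of 3 arrays, replicate 1, lay among them. The differences were -0.40 ± 0.163 (limma, SE, adjusted p = 0.110) and -0.44 ± 0.176 (limma, SE, adjusted p = 0.133). Without 96 h replicate 1 it was called lower at 48 h (-0.40, adjusted p = 0.0241) and at 96 h (-0.69, adjusted p = 0.0253), as it was at both times with quantile normalization (-0.57, adjusted p = 0.0138 at 48 h and -0.62, adjusted p = 0.0232 at 96 h), median scaling (-0.63, adjusted p = 0.0202 and -0.83, adjusted p = 0.0112), normexp (-0.26, adjusted p = 0.00832 and -0.25, adjusted p = 0.0223) and the authors' deposited table (-0.26, adjusted p = 0.00816 and -0.25, adjusted p = 0.0221). Normexp and the deposited table hold nearly the same values (r of at least 0.99998). With only the 2 groups in the limma fit Bcl2l11 was called at 48 h (adjusted p = 0.0353). With its 2 probes averaged it was not called at either time (-0.13, limma adjusted p = 0.588 at 48 h). A second probe (A_52_P348214) ranged from -3.03 to -1.76 at 0 h, -2.95 to -2.22 at 48 h and -2.80 to -2.43 at 96 h, with differences of 0.14 ± 0.286 (limma, SE, adjusted p = 0.763) and -0.03 ± 0.309 (limma, SE, adjusted p = 0.955).

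Bok moved in opposite directions at the 2 times. It read 0.02, 0.10, 0.17 and -0.02 at 0 h, 1.08, 0.69, 0.99 and 1.17 at 48 h and -0.76, -0.77 and -0.70 at 96 h. Every 48 h array lay above and every 96 h array below all 0 h arrays. The difference was 0.92 ± 0.112 (limma, SE, adjusted p = 0.00199) at 48 h, 1.89-fold higher, and -0.81 ± 0.121 (limma, SE, adjusted p = 0.00811) at 96 h, which left 57.0% of the 0 h signal. From 48 h to 96 h it was -1.73 ± 0.121 (limma, SE, adjusted p = 0.00115). Relative to the median of all genes the 3 differences were 0.80, -0.92 and -1.76. All 3 calls held in the 24 alternatives run, and the 96 h arrays, which were alone on slide 2, enter the last 2. Not all alternatives could move a difference. Bok had 1 probe, so averaging probes left it the same, as did leaving out an array of the group not compared.

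The pore-forming effectors Bax and Bak1 were not called. Bax read 5.67, 5.61, 5.82 and 5.85 at 0 h, 5.67, 5.82, 6.02 and 5.95 at 48 h and 5.44, 5.65 and 5.42 at 96 h. All 96 h arrays lay below all 48 h arrays, and 1 of them lay among the 0 h arrays. The differences were 0.13 ± 0.109 (limma, SE, adjusted p = 0.433), -0.23 ± 0.118 (limma, SE, adjusted p = 0.217) and, from 48 h to 96 h, -0.36 ± 0.118 (limma, SE, adjusted p = 0.0759). With the number in the file names as a replicate block the last was called lower (-0.39, adjusted p = 0.0475). Bak1 read 5.56 to 5.88, 5.63 to 5.86 and 5.55 to 5.65 at the 3 times. Its differences from 0 h were 0.05 ± 0.0990 (limma, SE, adjusted p = 0.742) with an interval of -0.17 to 0.27 and -0.09 ± 0.107 (limma, SE, adjusted p = 0.612) with an interval of -0.33 to 0.15.

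**Figure D3:**
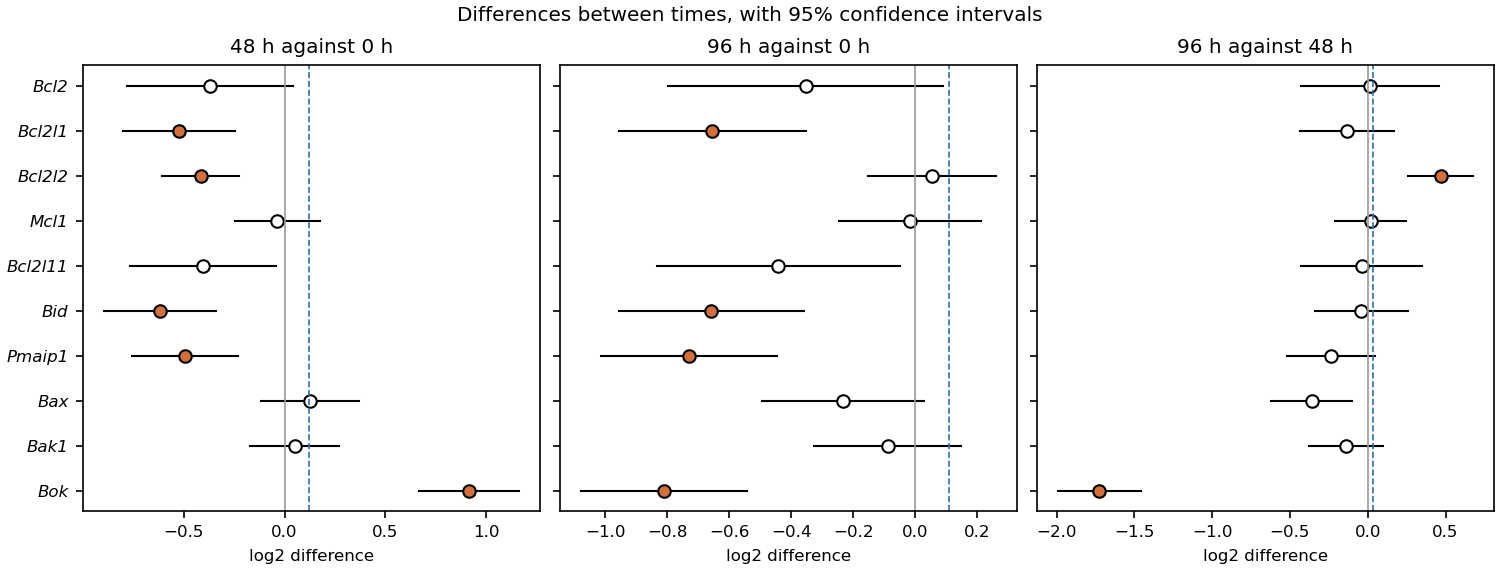
Log2 difference (horizontal axis) of each member in the 3 comparisons, with 95% confidence intervals from limma; filled points were called, the dashed line is the median of all genes. Of the 10 members 5 are filled at 48 h, 4 at 96 h against 0 h and 2 between 48 h and 96 h.

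Tested probe by probe, 5 of the 14 member probes were called at 48 h, 5 at 96 h and 2 from 48 h to 96 h, against 16.4%, 8.31% and 9.78% of all 34269 probes. Several probes share a gene and are not independent. At 0 h, the arrays fell in the same order for Bcl2l1, Bid and Pmaip1, with replicate 4 highest and replicate 2 lowest.

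Other family members and relatives were called at 48 h. Of 15 listed genes 11 were tested. At 48 h 2 rose and 3 fell (limma, log2 difference ± SE): Bnip3 1.34 ± 0.129 (adjusted p = 0.00122), a mitophagy receptor, rose with its relative Bnip3l 0.39 ± 0.0969 (adjusted p = 0.0220), while Bbc3 (PUMA, BH3-only) at -0.78 ± 0.177 (adjusted p = 0.0161) and the pro-survival Bcl2a1d at -1.69 ± 0.414 (adjusted p = 0.0213) fell. The remaining gene that fell was Bik (BH3-only), at -0.69 ± 0.206 (adjusted p = 0.0436), named after its value was seen. Bcl2a1d belongs to a family of near-identical copies, so its probe may read several. At 96 h against 0 h limma called 0 of 11, with 1 higher and 1 lower at unadjusted p under 0.05. Over all genes, 10.5% were called higher and 8.03% lower at 48 h, and 6.18% and 3.38% at 96 h. For scale, an unadjusted limma p of 0.0306 at 96 h ranked 5784 of 25079 genes. From 48 h to 96 h Bnip3 fell, with a difference of -1.34 ± 0.140 (adjusted p = 0.00254). The median of the tested genes was -0.20 at 48 h and -0.01 at 96 h.

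Among 22 genes of the mitochondrial steps below the family, 3 rose and 3 fell at 48 h in limma. Birc2, an inhibitor of apoptosis protein, differed by -0.70 ± 0.129 (adjusted p = 0.00777). Cycs (cytochrome c) differed by 0.35 ± 0.0813 (adjusted p = 0.0177) and Endog, a mitochondrial nuclease, by 0.38 ± 0.107 (adjusted p = 0.0345). At 96 h against 0 h limma called 0 of 22, with 2 higher and 3 lower at unadjusted p under 0.05, and from 48 h to 96 h 1 rose and 2 fell. Over all genes, 10.5% were called higher and 8.03% lower at 48 h, and 6.18% and 3.38% at 96 h. For scale, an unadjusted limma p of 0.0306 at 96 h ranked 5784 of 25079 genes. The median of the listed genes was -0.02 at 48 h and -0.06 at 96 h.

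Among genes known to set levels of family members, 25 of 26 were tested, and 1 rose and 8 fell at 48 h. Ddit3 (CHOP, a stress transcription factor) differed by -3.82 ± 0.471 (limma, SE, adjusted p = 0.00199) and Il3ra, the IL-3 receptor alpha chain, by -1.20 ± 0.157 (adjusted p = 0.00243). Jak2, the kinase of that receptor, differed by -0.64 ± 0.113 (adjusted p = 0.00671) and Nfkb1 by -0.62 ± 0.121 (adjusted p = 0.00928). At 96 h 3 were lower and 0 higher (8 lower and 3 higher at unadjusted p under 0.05): Il3ra at -1.89 ± 0.170 (adjusted p = 0.00137), Pim3, a survival kinase, at -0.77 ± 0.142 (adjusted p = 0.0155) and Ddit3 at -2.11 ± 0.508 (adjusted p = 0.0327). Over all genes, 10.5% were called higher and 8.03% lower at 48 h, and 6.18% and 3.38% at 96 h. For scale, an unadjusted limma p of 0.0306 at 96 h ranked 5784 of 25079 genes. The median of the tested genes of this list was -0.27 at 48 h and -0.05 at 96 h.

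**Figure D4:**
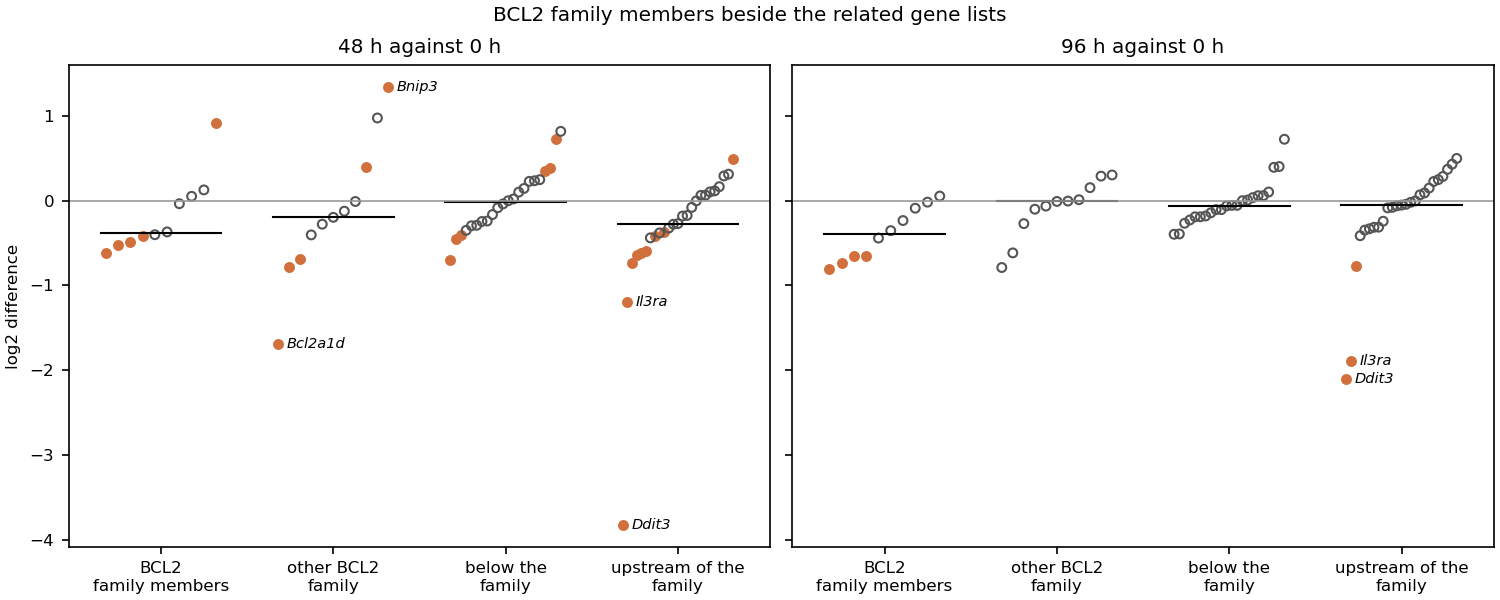
Log2 difference (vertical axis) at 48 h (left) and 96 h (right) against 0 h for the 10 members and the tested genes of the 3 lists, 1 point per gene; filled points were called and bars are medians. The members' median lies at -0.39 and -0.40, and no gene of the other-family list or the list below the family is filled at 96 h.

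Genes most like 3 members were found by Pearson correlation over the 11 arrays, which share groups and slides. The description carries no test. For Bok they were Gm5936 (r = 0.982), Crip2 (r = 0.979), Map6d1 (r = 0.974). For Bid they were Mreg (r = 0.974), Snx10 (r = 0.974), Cln8 (r = 0.973), and for Pmaip1 Uprt (r = 0.976), Abtb2 (r = 0.966), Ccdc137 (r = 0.962).

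**Figure D5:**
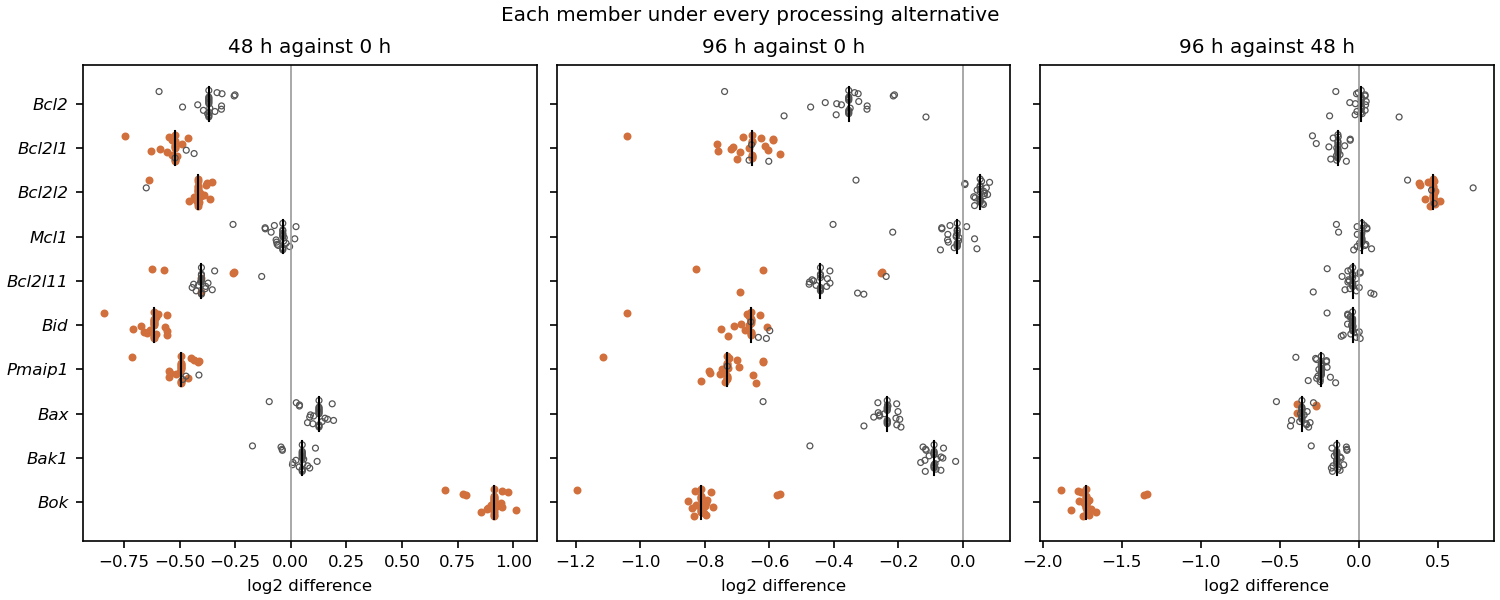
Log2 difference (horizontal axis) of each member under the main processing and 24 alternatives in the 3 comparisons, 1 point per setting, filled where called; black lines are the main values. Bok is filled throughout, while Bcl2l11 is filled in some settings only.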

How the data were processed

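RNA was measured on 11 1-colour Agilent arrays. Per the file headers, Feature Extraction 11.0.1.1 wrote the deposited spot intensity, background-subtracted and not normalized between arrays. The authors' series table is on a log2 scale, and the submitters' processing notes name limma. Its columns matched normexp (offset 50) with quantile normalization of the scanner values at r of at least 0.99998, with medians of 6.17 to 6.19.

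Control and outlier-flagged spots (125 to 194 per array) were left out. Each array's processed signals were divided by their 75th percentile (controls excluded) and put on a log2 scale. Probes well above background on at least 3 arrays were kept (34269 of 55681), and the brightest stood for its gene. Accessions were matched to RefSeq genes of GRCm38.p6 (27656 probes with 1 symbol, 28025 with none). limma 3.58.1 in R 4.3.3 was fitted to all arrays in 3 groups and checked on simulated data; the check's minimum share of recovered genes was revised after a first run fell short of it, with the fit unchanged. The number of arrays limits the precision. Figures used Python 3.11.15 and matplotlib 3.10.9.

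The members and lists were chosen with earlier results of these data known. All members are named, with the 4 genes of lowest adjusted p among those called in each list and comparison with 0 h, and the 3 genes most correlated with each of 3 members; 1 gene that this rule names is not reported here. The 4 motifs were chosen after the members' results were known. They were first searched in longer windows that ran past the start, then only in the 250 bases before it, so that no transcribed sequence is printed; the shorter window dropped a second Bax E-box. Alternatives changed scaling, background correction, filter, probe choice, design and arrays.

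At 96 h the numbers in the titles and in the file names differ. By file name, all 10 same-number pairs of arrays correlated in their deviations from group means (r of 0.115 to 0.356), and 10 of 11 arrays correlated best with their own number; by title, r was -0.04 to 0.356 and 5 of 11 did. The file-name numbers were taken to pair the arrays. The main fit did not use this pairing, so its SEs and p-values treat the arrays as unpaired. With the file-name block, 3052 genes were called higher and 2316 lower at 48 h, against 2644 and 2013 in the main fit. At 96 h against 0 h the block gave 2148 and 1366, against 1549 and 848.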

Additional observations from a re-analysis of the deposited data

Results flagged for a closer look

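The difference of Bok from 0 h changed sign between the times: 96 h minus 48 h was -1.73 (limma, adjusted p = 0.00115), higher on 4 of 4 arrays at 48 h and lower on 3 of 3 at 96 h. For Bcl2l2 it was 0.47 (adjusted p = 0.0140), with 3 of 3 arrays at 96 h above all 4 at 48 h.

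Of 28 groups of 4 arrays (14 probes at 0 h and 48 h), 2 held an array far from the others, where chance gives about 1 in 20 groups. The lowest 48 h array of the dim Bcl2l2 probe (A_55_P2144120) stood apart by 0.876 of the group's range, and that of the second Bcl2l11 probe (A_52_P348214) by 0.939.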

How the results depend on the processing

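The 30 single-member differences gave 654 values on the same side of the threshold in the same direction, 19 that lost a call, 15 that gained one and 32 that changed sign. No called value changed sign. Under the 5 other scalings and value sources, called genes at 48 h were 424 to 3578 higher and 1753 to 2697 lower, at 96 h against 0 h 231 to 1914 and 838 to 2328, and from 48 h to 96 h 158 to 1859 and 762 to 1752. With each array scaled to its median (424 higher and 1931 lower at 48 h), the median of all genes was -0.10, -0.28 and -0.13 in the 3 comparisons.

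Members called lower at 48 h were 2 to 5 with 1 array left out. They were 2 without 0 h replicate 4 or 48 h replicate 4, and 5 without 96 h replicate 1. Over all genes, 1119, 1055 and 1853 were called lower in those fits, against 2013 in the main fit. At 96 h against 0 h, members called lower were 2 to 5 (2 without 96 h replicate 2 or 3, 5 without 96 h replicate 1). Over all genes, 221, 230 and 405 were called lower without 96 h replicates 2, 3 and 1, against 848 in the main fit. With only the 2 groups compared 1 member was, and 106 of all genes. With median scaling, quantile normalization, normexp and the deposited table, members called lower were 5 at both times. In those fits 1931, 2202, 2697 and 2687 of all genes were called lower at 48 h, against 2013 in the main fit. At 96 h against 0 h the counts over all genes were 2328, 1164, 1293 and 1283, against 848. With only the 2 groups compared, 5 members and 1608 of all genes were called lower at 48 h, the added member being Bcl2l11. With a gene's probes averaged, 3 members and 1867 of all genes were called lower at 48 h. From 48 h to 96 h, members called higher were 0 under median scaling, with a gene's probes averaged and with the title number as replicate block. They were 0 to 1 with 1 array left out (0 without 96 h replicate 1). In the fits with 0, the genes called higher were 158, 1151, 776 and 402, against 1296 in the main fit. Members called lower from 48 h to 96 h were 2 with the percentile over probes above background on all arrays, normexp, the deposited table and the file-name replicate block. The second was Bax. All genes called lower in those fits were 1752, 1519, 1516 and 1574, against 1493 in the main fit. With no filter on dim probes, 2, 2 and 1 member probes were called in the 3 comparisons. The share of all probes called without the filter was not counted. Of 36983 genes tested that way, 1495 were called higher and 1157 lower at 48 h. The counts were 653 and 257 at 96 h against 0 h, and 602 and 765 from 48 h to 96 h. Neither block changed another member's call, except that the title number ended the Bcl2l2 call from 48 h to 96 h (0.46, adjusted p = 0.0542). The causes of these changes were not tested.

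Signs changed for uncalled values. Under median scaling these were Bax -0.10 and Bak1 -0.17 at 48 h, Bcl2l2 -0.33 at 96 h, and Bcl2 -0.15 and Mcl1 -0.14 from 48 h to 96 h. Bak1 at 48 h was -0.0443 with quantile normalization, -0.0393 with normexp and -0.0382 in the deposited table. With the percentile over probes above background on all arrays, Mcl1 was 0.0230, 0.0115 and -0.0115 in the 3 comparisons, and Bcl2 -0.0153 in the last. The remaining changes were all from 48 h to 96 h: Bcl2 -0.00396 with quantile normalization, -0.0580 with the file-name replicate block and -0.0226 with slide row, Mcl1 -0.129 with probes averaged and -0.0105 with the title replicate block, and Bcl2l11 0.00746 with normexp and 0.00761 in the deposited table. With 1 array left out, the ranges were Mcl1 -0.0664 to 0.0174 (48 h against 0 h), Mcl1 -0.0697 to 0.0434 (96 h against 0 h), Bcl2 -0.186 to 0.254 (96 h against 48 h), Mcl1 -0.0333 to 0.0798 (96 h against 48 h), Bcl2l11 -0.289 to 0.0948 (96 h against 48 h), Bid -0.112 to 0.00772 (96 h against 48 h).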
